A study of Mus musculus with 6 samples.

Results

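Scavenger and mannose receptors bind modified lipoproteins, glycoproteins, haemoglobin complexes and dying cells at the surface of macrophages and carry them to the endosome and lysosome, and they are candidate routes by which myeloid cells could take up injected exosomes. The genes described here are the mannose receptor Mrc1, the haemoglobin scavenger receptor Cd163, the class A receptors Msr1 and Marco, the clearance receptor Stab1, the class B family Cd36, Scarb1 and Scarb2, and the lysosomal glycoprotein Cd68. Clec7a, the beta-glucan receptor that completed the list of 10, is not analysed here. These 9 genes were followed among 20649 genes in 9235 cell barcodes. The rule that names them uses no measured value, but they were chosen with earlier results of these data known.

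The cells came from CT26 tumors, a mouse colon carcinoma grown subcutaneously from 500000 cells in female BALB/c mice of 6 to 8 weeks. Each tumor received 3 injections of HEK293-derived exosomes carrying an antisense oligonucleotide, either exoASO-Scramble, the control sequence (3 tumors), or exoASO-STAT6, directed at the transcription factor STAT6 (3 tumors). All 6 tumors therefore received exosomes, were collected 24 h after the last dose and were enriched for CD45 positive leukocytes before droplet sequencing of transcript 3′ ends. The table of counts holds 6 libraries, named here by the number that ends their barcodes (3 to 8), and these numbers could not be tied to a tumor or a treatment. No comparison between exoASO-Scramble and exoASO-STAT6 was made, no library is treated as a replicate of a group, and no test was run. Values are given by library, and intervals cover counting error only.

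Macrophages are professional scavengers. In tumors they arise largely from Ly6c2-positive monocytes and acquire complement C1q genes as they mature, and Mrc1, Cd163 and Stab1 are widely used as markers of alternatively activated or tissue-resident macrophages, a program that STAT6 takes part in downstream of interleukin-4. Msr1 and Cd36 take up oxidised lipoproteins, Scarb1 binds high-density lipoprotein, Scarb2 is a lysosomal membrane protein that delivers glucocerebrosidase, and Cd68 lies mainly in late endosomes and lysosomes.

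Macrophage barcodes were those with at least 3 unique molecular identifiers (UMIs, each counting 1 captured transcript) of Csf1r and Adgre1 together and no UMI of Cd3e, Ncr1 or Cd79a. This gate held 4650 barcodes, 50.4% of all (exact 95% interval 49.3 to 51.4), with 459 to 1088 in each library and a median of 13382 UMIs. The exclusion of lymphocyte genes removed 1635 of 6285 barcodes, whose median was 26168 UMIs. The macrophage markers were present (Lyz2 6069 CPM and C1qb 1802 CPM, in UMIs per 1000000 UMIs of the summed barcodes), while the 6 T cell markers summed to 18.9 CPM. The 10 neutrophil markers summed to 641 CPM (S100a8 312 CPM, Ly6g 0.89 CPM), and S100a9, which is not among them, stood at 466 CPM. Library totals ran from 11492757 to 33902084 UMIs, and 16 barcode sequences occurred in more than 1 library. Library 5 stood apart, with the lowest median depth (7270 UMIs) and 217 of the 286 macrophage barcodes that held a Retnla UMI. As a gauge of free RNA, 691 barcodes with a lymphocyte gene and no Csf1r or Adgre1 UMI were measured in the same way (median 6380 UMIs). Asking for no Csf1r or Adgre1 UMI favours barcodes with little macrophage RNA, so this gauge may understate free macrophage RNA.

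Among the listed receptors, Mrc1 correlated most with Stab1 and with Cd163 from cell to cell, so the promoters of these 3 are shown. The sequences are RefSeq's for GRCm38.p6, 5′ to 3′ on the gene's strand, from 250 bases before to 50 bases after the start. Capitals mark GAGGAA on either strand (read as TTCCTC on the opposite one), the purine-rich core that the macrophage factor PU.1 can bind. The Mrc1 promoter lay at chr2:14229164-14229463 (plus strand), that of Stab1 at chr14:31168592-31168891 (minus strand) and that of Cd163 at chr6:124304401-124304700 (plus strand).
Mrc1: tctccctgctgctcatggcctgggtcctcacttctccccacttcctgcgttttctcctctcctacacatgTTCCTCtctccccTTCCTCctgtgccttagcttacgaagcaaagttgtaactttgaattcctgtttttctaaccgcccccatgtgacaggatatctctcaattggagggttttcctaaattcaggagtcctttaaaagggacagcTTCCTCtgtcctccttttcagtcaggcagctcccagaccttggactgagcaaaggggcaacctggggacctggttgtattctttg
Stab1: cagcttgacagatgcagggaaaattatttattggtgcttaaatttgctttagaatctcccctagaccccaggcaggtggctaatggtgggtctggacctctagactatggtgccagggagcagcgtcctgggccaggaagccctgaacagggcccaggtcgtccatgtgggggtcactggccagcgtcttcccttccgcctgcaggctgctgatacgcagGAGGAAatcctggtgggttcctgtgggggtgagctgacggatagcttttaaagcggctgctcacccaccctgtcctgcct
Cd163: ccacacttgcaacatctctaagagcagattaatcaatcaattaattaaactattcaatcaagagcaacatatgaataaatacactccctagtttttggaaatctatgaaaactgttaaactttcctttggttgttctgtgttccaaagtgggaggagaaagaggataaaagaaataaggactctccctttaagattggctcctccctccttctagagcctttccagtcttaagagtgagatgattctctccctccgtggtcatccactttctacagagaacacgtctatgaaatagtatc
The Mrc1 window held 3 such matches, at bases 71 to 76, 84 to 89 and 216 to 221, and the Stab1 window held 1, at bases 221 to 226. The Cd163 window held none. Of the other receptors with a window, Cd68 had 2 matches, Marco had 1, and Cd36 and Scarb2 had none. The same letters occurred in 28.3% of 32851 promoter windows of that length. A STAT6-type motif, TTC and GAA with any 4 bases between them, was in 6.95% of the windows and in none of these 3. Among the 7 measured receptors with a window, it occurred in that of Cd36 alone. These matches describe letters, and no binding was measured.

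In macrophage barcodes the receptors fell into an abundant set (Mrc1, Msr1 and Cd68), a middle set (Stab1, Cd36 and Scarb2), a sparse set (Scarb1 and Cd163) and a receptor that was all but missing (Marco). Without library 5 the levels over the other 5 libraries were 656 CPM for Mrc1, 28.2 CPM for Cd163, 135 CPM for Cd36 and 633 CPM for Cd68. Because reads came from 3′ ends and were not scaled by length, these sets describe how often each transcript was counted and are no ranking of receptor amounts.

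Mrc1 (chr2:14229414-14332023), the endocytic receptor for mannose-bearing glycoproteins, was counted at 758 CPM (95% Poisson interval 752 to 765) over all libraries. By library it stood at 967, 619, 1449, 748, 452 and 655 CPM in libraries 3 to 8. Library 5 was highest and library 7 lowest, and in the lymphocyte background the gene stood at 36.2 CPM. At an equal depth of 2000 UMIs per barcode, which left out 11 macrophage barcodes, 56.8% of macrophage barcodes had an Mrc1 UMI (83.7% before thinning), against 5.02% of the lymphocyte barcodes.

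Msr1 (chr8:39543232-39642750), a receptor for modified low-density lipoprotein, was the most even of the abundant receptors. Its level was 724, 681, 717, 639, 646 and 635 CPM in libraries 3 to 8, and 64.1% of thinned macrophage barcodes had a UMI, against 4.55% in the lymphocyte background. Cd68 (chr11:69664213-69666170) stood at 596, 638, 365, 649, 589 and 661 CPM. Here library 5 lay below the other 5 libraries, which differed little among themselves, and the thinned share was 62.1% against 7.85% in lymphocyte barcodes.

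Stab1 (chr14:31139017-31168651), a clearance receptor for modified lipoproteins and extracellular proteins, was measured at 231, 193, 280, 114, 160 and 151 CPM in libraries 3 to 8, and the lymphocyte background was 6.28 CPM. Library 5 was highest and library 6 lowest. Cd36 (chr5:17781690-17888959), which takes up long-chain fatty acids and oxidised lipoproteins, ran the other way in library 5, with 113, 125, 58.7, 153, 130 and 144 CPM. A UMI of Stab1 was found in 23.9% and of Cd36 in 15.9% of thinned macrophage barcodes.

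Scarb2 (chr5:92441311-92505657) varied least among the middle set, from 61.1 CPM in library 7 to 83.6 CPM in library 5. Its level in the lymphocyte barcodes, 31.7 CPM, was the nearest to the macrophage level (70.1 CPM) among the 8 receptors. Of thinned lymphocyte barcodes 5.81% held a UMI, against 14.1% of macrophage barcodes. Lymphocytes may express Scarb2, Scarb1 and Cd36 themselves, so for these genes the lymphocyte level is no gauge of free RNA alone. Scarb1 (chr5:125277087-125341094) ranged from 26.3 to 34.0 CPM with 1.98 CPM in lymphocytes. Marco (chr1:120474538-120505024) gave 5 UMIs in all macrophage barcodes (0.069 CPM, interval 0.022 to 0.16), 1 in dendritic barcodes and 0 in neutrophil barcodes, where a count of 0 is taken to allow up to 3 counts, 0.125 CPM. No fold is given for it, since its ratios rest on the 0.5 UMI added to each sum.

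**Figure D1:**
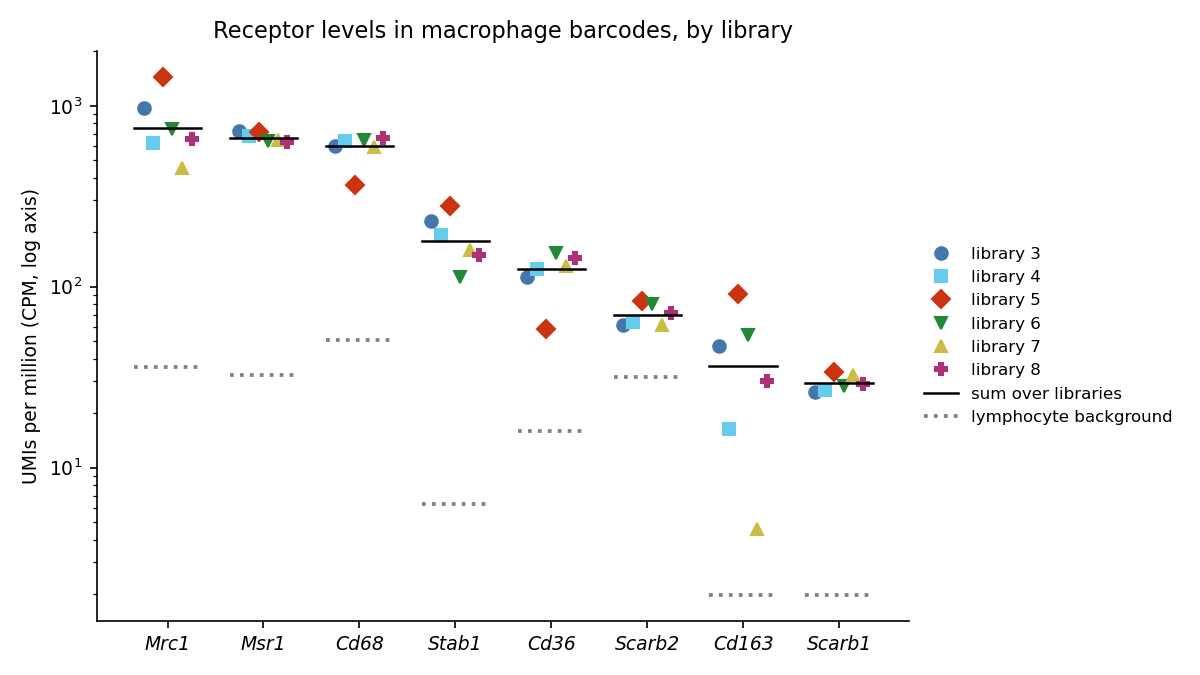
Level of 8 receptors in macrophage barcodes (CPM, log axis) in each library, with the level over all libraries (black line) and in the lymphocyte background (dotted line). Mrc1, Cd163 and Stab1 are highest in library 5, where Cd36 and Cd68 are lowest, and Cd163 is lowest in library 7. Marco is not drawn.

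Cd163 (chr6:124304636-124330529) differed most between libraries, with 47.1, 16.3, 91.4, 54.2, 4.59 and 30.2 CPM in libraries 3 to 8. A Cd163 UMI was found in 420 macrophage barcodes, 9.03% (exact interval 8.22 to 9.89), and by library in 8.72%, 6.98%, 20.3%, 10.5%, 2.82% and 5.79%. In library 7 the share at 2000 UMIs was 0.614%, beside 0.649% of its lymphocyte barcodes. The counts were held by few cells. Of the 58 Cd163 UMIs of library 7, 41.4% lay in 2 macrophage barcodes. The 149 macrophage barcodes with at least 5 Cd163 UMIs carried 81.3% of all its UMIs, while the 465 macrophage barcodes highest in Mrc1 carried 34.6% of the Mrc1 UMIs.

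The barcodes with at least 5 Cd163 UMIs had another receptor profile than the 4230 with none. This cut was set after the values were seen, and the contrast is a description. Mrc1 stood at 2235 against 660 CPM and Stab1 at 344 against 162 CPM, and Scarb2 at 117 against 67.9 CPM, each higher in 3 of 3 libraries with 20 or more such barcodes (5, 6 and 8). Msr1 (434 against 674 CPM) and Cd36 (43.6 against 130 CPM) were lower in the same 3 libraries, and Cd68 and Scarb1 differed in sign between them. Of these 149 barcodes 47 had a Retnla UMI (31.5%), and 40 of the 47 lay in library 5. The 2 such barcodes of library 7 are too few for a value.

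**Figure D2:**
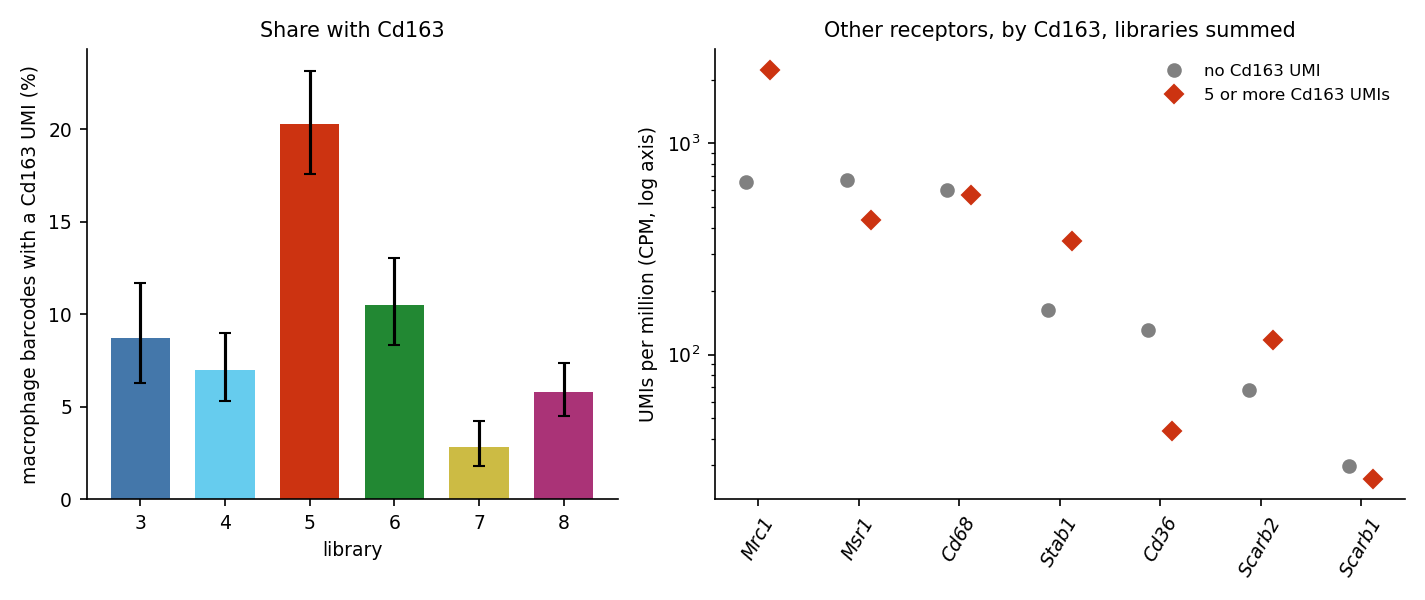
Left, share of macrophage barcodes with a Cd163 UMI in each library with exact 95% intervals, unthinned; library 5 reaches 20.3% and library 7 has 2.82%. Right, level of 7 other receptors (CPM, log axis) in barcodes with 5 or more Cd163 UMIs and with none; Mrc1, Stab1 and Scarb2 are higher, and Msr1 and Cd36 lower, where Cd163 is high.

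At 2000 UMIs per barcode a macrophage barcode held UMIs of 2.47 of the receptors on average, at most 7, and 4.29% held none. UMIs of Mrc1, Msr1, Stab1 and Cd68 occurred together in 8.24%. In the lymphocyte background 81.0% held none. Correlations were taken across barcodes within a library (4639 barcodes in all) and are given as the median of 6 libraries. Barcodes of a library share its free RNA. The strongest were Mrc1 with Stab1 (r = 0.21, from 0.16 to 0.34) and Mrc1 with Cd163 (r = 0.20, from 0.16 to 0.25), and in each of the 6 libraries more barcodes held both genes of these pairs than the product of the single shares. For Mrc1 and Stab1 the median share with both was 15.5% against a product of 12.3%.

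The other pairs were weak. Cd163 with Stab1 had a median of 0.12 and Msr1 with Stab1 0.11, each near 0 in its lowest library. At the other end stood Cd163 with Msr1 (-0.09, from -0.23 to 0.02) and Cd163 with Cd36 (-0.06), a pair found together in fewer barcodes than the product in 6 of 6 libraries. Scarb1 and Scarb2, the closest relatives of Cd36 on the list, had medians of 0.01 and -0.03 with it. Msr1 with Cd36 (0.06) and Cd36 with Cd68 (0.05) were above 0 in 6 of 6 libraries. Weak values in sparse counts are no finding, and nothing is read from the pairs beyond Mrc1 with Stab1 and Mrc1 with Cd163.

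**Figure D3:**
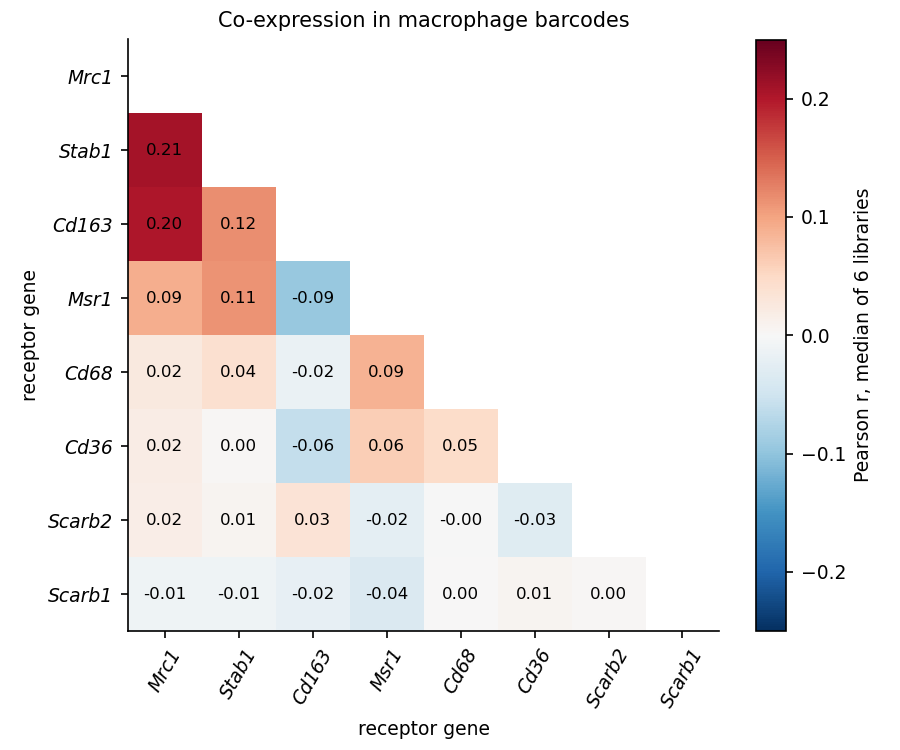
Pearson correlation of log-scaled counts between receptors across macrophage barcodes at 2000 UMIs, as the median of 6 libraries (colour and number). Mrc1 with Stab1 and Mrc1 with Cd163 reach 0.21 and 0.20, and the lowest value is -0.09 for Cd163 with Msr1.

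Among 2789 genes seen in at least 10% of thinned macrophage barcodes, those most like Mrc1 from cell to cell were the monocyte-attracting chemokine Ccl7 (median r = 0.37), the platelet factor gene Pf4 (0.34) and the chemokine Ccl2 (0.31), where the 99th percentile of all genes was 0.18. For Stab1 they were the chemokines Ccl7 (0.25), Ccl12 (0.23) and Ccl2 (0.22). For Msr1 they were the galectin Lgals1 (0.19), Ccl2 (0.19) and the glycolytic Gapdh (0.18). Cd36 and Cd68 shared their 3 nearest genes, the lysosomal proteases Ctsl and Ctsb and the ferritin chain Ftl1, at 0.16 to 0.19 for Cd36 and 0.17 to 0.21 for Cd68. For Scarb2 the nearest were Glul, Marcks and Ctsd, all at 0.09 or below. Cd163, Scarb1 and Marco were seen in too few barcodes for this comparison.

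The state comparisons asked in which macrophages each receptor was counted more. Barcodes with at least 1 UMI of a state gene were set against those with none, within each library holding 20 or more barcodes of each kind. A receptor, like any other gene, was called when the median of the within-library ratios passed 1.5-fold and the sign was the same in all those libraries, and 8 receptors (all but Marco) reached the minimum of 10 CPM in each comparison. The barcodes with a UMI of C1qa, Rsad2 or Mmp12 were deeper than those without, with median depths of 15303 against 9406 UMIs for C1qa, and those with Ly6c2 (12211 against 14258) and with Retnla (9248 against 13555) were shallower. A single UMI of a state gene can come from free RNA. In the lymphocyte barcodes C1qa stood at 72.4 CPM against 2950 CPM in the macrophage gate, Mmp12 at 132 against 395 CPM, Rsad2 at 106 against 344 CPM and Retnla at 36.7 against 118 CPM, but Ly6c2, which some T cells also express, was higher in the lymphocyte barcodes (326 against 257 CPM). The arms are therefore barcodes with and without a UMI of the gene, not cell states established one by one. Calls are given beside the share of all tested genes called, since many genes differ between these states.

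C1qa encodes a chain of complement C1q and marks mature tumor macrophages, 3495 of the 4650 barcodes. In barcodes with C1qa the Stab1 level was 250, 201, 319, 131, 175 and 164 CPM in libraries 3 to 8, and without C1qa 105, 64.9, 98.99, 83.3, 59.9 and 73.1 CPM. The ranges did not overlap, and the median ratio was 2.62-fold (log2 1.39, from 0.65 to 1.69). Stab1 was the only receptor of 8 called higher, where 8.23% of 7716 genes were, and none was called lower, where 5.68% were. Mrc1 had a median log2 ratio of 0.66 but was higher in only 4 of 6 libraries, with 953 against 1068 CPM in library 3. Msr1 was higher in 6 of 6 libraries by a small amount (median log2 0.20). The 10 neutrophil markers summed to 571 CPM with C1qa and 994 CPM without, and the 10 monocyte and macrophage markers to 16591 against 10248 CPM, and their part in the result was not tested.

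Ly6c2 is a marker of monocytes among myeloid cells, and 2167 macrophage barcodes held a UMI of it. Mrc1, Cd163 and Stab1, the receptors used as markers of alternative activation, were lower there. Stab1 stood at 141, 164, 151, 101, 112 and 112 CPM with Ly6c2 and at 269, 210, 339, 153, 199 and 183 CPM without, 1.71-fold lower in the median (log2 -0.77). Cd163 was 2.69-fold lower (log2 -1.43, from -1.82 to -0.33), 24.7 against 46.0 CPM over all libraries. Mrc1 was 1.51-fold lower (log2 -0.60), but in library 6 the levels were 740 and 772 CPM, and without library 3, 5 or 7 its median no longer passed 1.5-fold (-0.52 at the least change among all alternatives). These 3 of 8 were called lower, where 3.13% of 7727 genes were, and none was called higher, where 3.48% were. Msr1, Cd36 and Cd68 were each lower in 6 of 6 libraries, by less than 1.5-fold in the median (in library 5 Cd36 was 1.84-fold lower). With at least 6 Csf1r and Adgre1 UMIs the Mrc1 and Cd163 calls were both lost, and without the deepest 5% of barcodes the Mrc1 call was. With a minimum of 50 CPM Cd163 was not tested, since it stood below that in both arms. The 10 neutrophil markers summed to 941 CPM with Ly6c2 and 392 CPM without, and to 1099 CPM with Ly6c2 alone and 374 CPM with C1qa alone, and their part in the result was not tested.

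When barcodes with C1qa and no Ly6c2 (2176) were set against those with Ly6c2 and no C1qa (848), the contrast in Stab1 widened. Its level was 279, 215, 367, 162.6, 202 and 188 CPM with C1qa alone and 83.6, 55.0, 72.9, 80.8, 54.6 and 60.1 CPM with Ly6c2 alone, 3.48-fold in the median. Cd36 was also called higher (1.87-fold), though library 6 showed 149 against 148 CPM. With CPM summed over all libraries Cd36 was not called (132 against 98.0 CPM) and Mrc1 and Cd163 were. The share of all genes called in either direction was then 27.0%, against 19.5% from ratios within libraries. Stab1 and Cd36, called from ratios within libraries, are 2 of 8, where 10.9% of 7824 genes were called higher. None was called lower, where 8.69% were. Mrc1 stood at 1052, 705, 1769, 756, 542 and 754 CPM with C1qa alone and at 832, 242, 550, 756, 242 and 369 CPM with Ly6c2 alone. It was 2.14-fold higher in the median and level in library 6, which kept it from being called. Without that library Mrc1 and Cd163 were called as well, where 21.1% of all genes were called in either direction. At equal depth 25.4% of the C1qa-only barcodes held 4 or more receptors, against 10.9% of the Ly6c2-only barcodes.

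**Figure D4:**
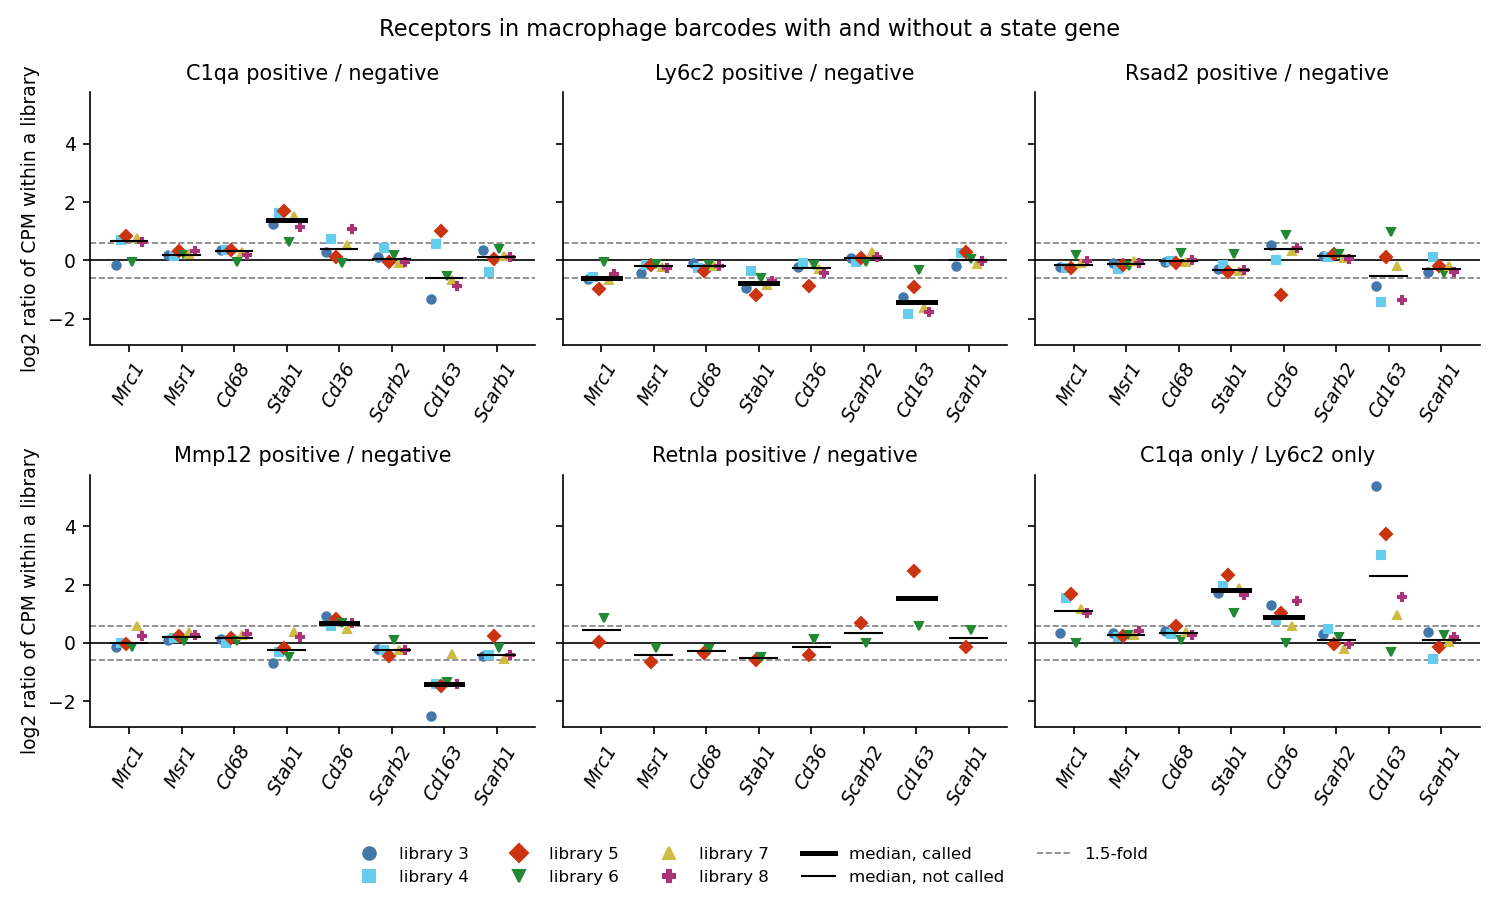
Log2 ratio of CPM within each library for 8 receptors in macrophage barcodes, for 5 state genes and for C1qa only against Ly6c2 only; points are libraries, lines their median (thick where called) and dashed lines 1.5-fold. Stab1 (called) and Msr1 (not called) are above 0 in all 6 libraries with C1qa. With Ly6c2 all 6 libraries are below 0 for Mrc1, Cd163 and Stab1 (called) and for Msr1, Cd36 and Cd68 (not called). Cd163 spreads most.

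Mmp12 encodes macrophage elastase, a matrix-degrading protease, and was found in 1155 macrophage barcodes. Cd36 was higher with it in every library, at 166, 159, 86.6, 221, 163.3 and 194 CPM against 87.2, 107, 49.4, 137, 117 and 120 CPM, a median of 1.62-fold. Cd163 was lower, at 11.3, 7.68, 39.2, 24.0, 3.68 and 14.3 CPM against 64.5, 20.8, 109, 61.5, 4.94 and 37.9 CPM, a median of 2.66-fold. The lymphocyte barcodes of library 7 stood at 0.80 CPM. So 1 receptor of 8 was called higher, where 1.77% of 7613 genes were, and 1 was called lower, where 0.644% were. The Cd163 call was lost with at least 6 Csf1r and Adgre1 UMIs. With a minimum of 50 CPM Cd163 was not tested, since it stood at 14.5 and 45.3 CPM in the arms with and without Mmp12. The Mrc1 ratio was above 0 in 3 libraries and below 0 in the other 3.

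Rsad2, an antiviral gene induced by interferons, was found in 2100 macrophage barcodes, and no receptor was called with it. Across the genome 1.74% of 7650 genes were called higher and 0.157% lower. The nearest was Cd163 (median log2 -0.52, from -1.43 to 0.97). Cd36 was higher in 5 libraries and lower in library 5, with 29.9 CPM in barcodes with Rsad2 and 68.2 CPM in those without.

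Retnla, a secreted product of alternatively activated macrophages and a target of interleukin-4 signalling, was found in 286 macrophage barcodes, and only libraries 5 and 6 had 20 or more (217 and 22). Cd163 stood at 233 against 41.9 CPM in library 5 and at 79.1 against 53.2 CPM in library 6. It was the only receptor called higher, where 3.90% of 7896 genes were, and none was called lower, where 3.71% were. Mrc1 stood at 1482 against 1438 CPM in library 5 and at 1313 against 726 CPM in library 6, and over all libraries at 1385 against 726 CPM, with 217 of the 286 barcodes in library 5. Scarb2 stood at 116 against 72.5 CPM in library 5 and at 79.1 against 79.9 CPM in library 6. Msr1, Stab1 and Cd68 were lower in both libraries and not called. Msr1 stood at 505 against 791 CPM in library 5 and at 566 against 642 CPM in library 6. Stab1 stood at 206 against 305 CPM and at 81.5 against 115 CPM (median log2 -0.52), and was called lower in library 5 alone with at least 5 Retnla UMIs and after thinning. Over all libraries Stab1 stood the other way, at 185 against 178 CPM. Cd68 stood at 306 against 385 CPM and at 566 against 652 CPM. Msr1 was also called lower with at least 5 Retnla UMIs, after thinning and without library 6. Scarb2 was called higher under the same settings and with at least 6 Csf1r and Adgre1 UMIs. Cd68 was called lower after thinning, as was Scarb1, and with CPM summed over libraries, as was Cd36. Mrc1 was called higher without library 5. Under these settings 9.17% to 38.1% of all genes were called in either direction.

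Of 38 other uptake receptors listed by function, 28 to 32 reached 10 CPM in a comparison. A gene that reached it in only 1 arm had to differ, so such genes are given apart, of which Olr1 and Scarf1 were named after their values were seen. With C1qa 4 of 29 were called higher and 3 lower, where 8.23% and 5.68% of all genes were. Without Lyve1, a hyaluronan receptor that reached 10 CPM only with C1qa (14.1 against 0.08 CPM), 3 were higher. Siglec1, the sialic acid receptor of lymphoid and tumor macrophages, was 5.36-fold higher, and the apoptotic cell receptor Axl 1.94-fold. Clec4e, a C-type lectin for damaged cells and mycobacterial lipid, was 2.31-fold lower. With Ly6c2 1 of 29 was higher (Clec4e, 1.99-fold) and 2 were lower (Mgl2, a galactose-binding lectin, 2.13-fold, and Siglec1, 1.60-fold), where 3.48% and 3.13% of all genes were. For C1qa only against Ly6c2 only 5 of 29 were higher and 5 lower, where 10.9% and 8.69% of all genes were. Siglec1 was 5.58-fold higher and Clec4e 3.31-fold lower, while Lyve1 (17.8 against 0 CPM) again reached 10 CPM in 1 arm only.

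With Mmp12 the lectin Clec4n (1.76-fold) and the phosphatidylserine-binding Cd300lf (1.53-fold) were higher and none of 28 was lower, where 1.77% and 0.644% of all genes were. With Rsad2 none of 28 was higher and Mgl2 alone was lower (1.57-fold), where 1.74% and 0.157% were. With Retnla 6 of 32 were higher and 7 lower, where 3.90% and 3.71% were. Of the 6, the lectins Cd209f (30.6 against 0.47 CPM), Cd209g (25.2 against 0.087 CPM) and Cd209a (48.2 against 8.95 CPM) and the lipoprotein receptor Olr1 (11.1 against 8.13 CPM) reached 10 CPM only with Retnla, which left 2 higher genes. The lectin Clec10a was 1 of these, at 2.73-fold. The median log2 ratio over the tested genes of the list was -0.02 for C1qa and -0.17 for Retnla.

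Neutrophil barcodes were those with at least 5 S100a9 UMIs, 1049 in all, but the gate did not isolate neutrophils. Of these, 908 (86.6%) also had 3 or more Csf1r and Adgre1 UMIs, 566 met the macrophage gate in full, and their median depth was 19067 UMIs. The 10 neutrophil markers summed to 2516 CPM against 641 CPM in the macrophage gate, yet Ly6g, a defining marker, stood at 3.63 CPM, and the macrophage gene C1qb was at 1395 CPM. The exclusion of lymphocyte genes was not applied here, and 363 of the 1049 barcodes held a UMI of Cd3e, Ncr1 or Cd79a. T cell markers summed to 356 CPM, against 18.9 CPM in the macrophage gate, where that exclusion lowers them. Against macrophage barcodes (a barcode in both sets was kept with the neutrophils) none of 8 receptors was called in any direction, where 3.45% of 7759 genes were called higher and 0.116% lower. Mrc1, for example, stood at 901, 608, 1387, 779, 468 and 660 CPM in neutrophil and at 968, 606, 1460, 712, 439 and 626 CPM in macrophage barcodes.

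The 141 barcodes with S100a9 and fewer than 3 Csf1r and Adgre1 UMIs were shallower (median 8200 UMIs), carried more of the neutrophil markers (5254 CPM, with S100a8 at 3055 CPM) and still held C1qb at 416 CPM. The cut on Csf1r and Adgre1 selects against macrophage transcripts, whose 10 markers summed to 7447 CPM here, against 15544 CPM in the macrophage gate. Whether this cut, or macrophage RNA in these droplets, set their receptor levels was not tested. Mrc1 stood at 396 CPM (362 to 433), Msr1 at 389 CPM, Stab1 at 90.6 CPM and Scarb1 at 10.4 CPM, and in the 3 libraries with 20 or more such barcodes these 4 were called lower than in macrophages, where 22.5% of genes were called in either direction. Cd68 (548 CPM), Cd36 (107 CPM) and Scarb2 (69.8 CPM) were not called.

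Dendritic barcodes were those with a UMI of Flt3, the receptor for a growth factor of dendritic cells, 344 in all. Here 185 (53.8%) also had 3 or more Csf1r and Adgre1 UMIs. The 10 dendritic markers summed to 2332 CPM, against 527 CPM in the macrophage gate. Mrc1 stood at 442, 460, 701, 330, 320 and 379 CPM in libraries 3 to 8, against 978, 625, 1494, 757, 452 and 662 CPM in macrophages, 1.93-fold lower in the median. Msr1 was 1.76-fold, Cd36 1.90-fold and Cd68 1.63-fold lower, each in 6 of 6 libraries. The Cd36 call was lost under a wider lymphocyte filter, with at least 6 Csf1r and Adgre1 UMIs and without the deepest 5% of barcodes. The exclusion of lymphocyte genes was not applied to the dendritic gate either, and 76 of its 344 barcodes held a UMI of Cd3e, Ncr1 or Cd79a. T cell markers summed to 240 CPM in the dendritic gate against 18.9 CPM in the macrophage gate, and NK cell markers to 515 against 107 CPM. The exclusion lowers both in the macrophage gate. The 10 monocyte and macrophage markers summed to 8682 against 15544 CPM (Lyz2 3293 against 6069 CPM), so they were lower along with the receptors. The part of the lymphocyte markers and of the macrophage markers in the result was not tested. The Msr1 ranges, 250 to 454 and 641 to 741 CPM, did not overlap. These 4 of 8 receptors were called lower, where 6.58% of 8073 genes were, and none was called higher, where 10.8% were. None of the 4 passed 2-fold.

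The difference was larger in the 159 Flt3 barcodes with fewer than 3 Csf1r and Adgre1 UMIs (median 8990 UMIs). In these the dendritic markers summed to 3966 CPM and C1qb was at 72.8 CPM. Choosing few Csf1r and Adgre1 UMIs also selects against macrophage transcripts. The 10 monocyte and macrophage markers summed to 2228 CPM in these Flt3 barcodes, against 15544 CPM in the macrophage gate. The part of that choice in their receptor levels was not tested. Msr1 was at 64.1 CPM (52.8 to 77.2), Cd68 at 157 CPM and Cd36 at 28.9 CPM there, and at equal depth 45.5% of these barcodes held no receptor UMI, against 4.29% of macrophage barcodes. All receptors tested except Scarb2, which stood at 67.0 CPM, were called lower in 3 libraries, where 36.5% of 8384 genes were called in either direction. Mrc1 was uneven, with 159, 78.7, 406, 4.40, 6.75 and 23.3 CPM in libraries 3 to 8. Its level in library 5 was high in the lymphocyte barcodes too, at 152 CPM.

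Among Flt3 barcodes with few macrophage transcripts, subsets by marker held too few cells to compare by library, so the sums are given with counting intervals. Those with Xcr1 or Clec9a, markers of type 1 conventional dendritic cells (55 barcodes), had Mrc1 at 100 CPM (79.2 to 125), those with Cd209a (30 barcodes) at 376 CPM (310 to 452), those with Siglech, a plasmacytoid marker (42 barcodes), at 243 CPM (197 to 298), and those with Ccr7 and Fscn1, markers of migratory cells (39 barcodes), at 49.6 CPM (30.7 to 75.8). Library 5 gave 17 of the 30 barcodes with Cd209a, 11 of the 42 with Siglech, 19 of the 55 with Xcr1 or Clec9a and 12 of the 39 with Ccr7 and Fscn1. It held 110 of the 113 Mrc1 UMIs of the Cd209a barcodes, 63 of the 94 of the Siglech barcodes and 56 of the 78 of the Xcr1 or Clec9a barcodes, so no order of the subsets is read from these sums. T cell markers summed to 541 CPM in the Siglech barcodes and 373 CPM in those with Cd209a, and their part in the result was not tested. Cd68 stood at 44.9 CPM (27.0 to 70.0) in the Ccr7 and Fscn1 barcodes, an interval that covers the 50.7 CPM of the lymphocyte background.

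**Figure D5:**
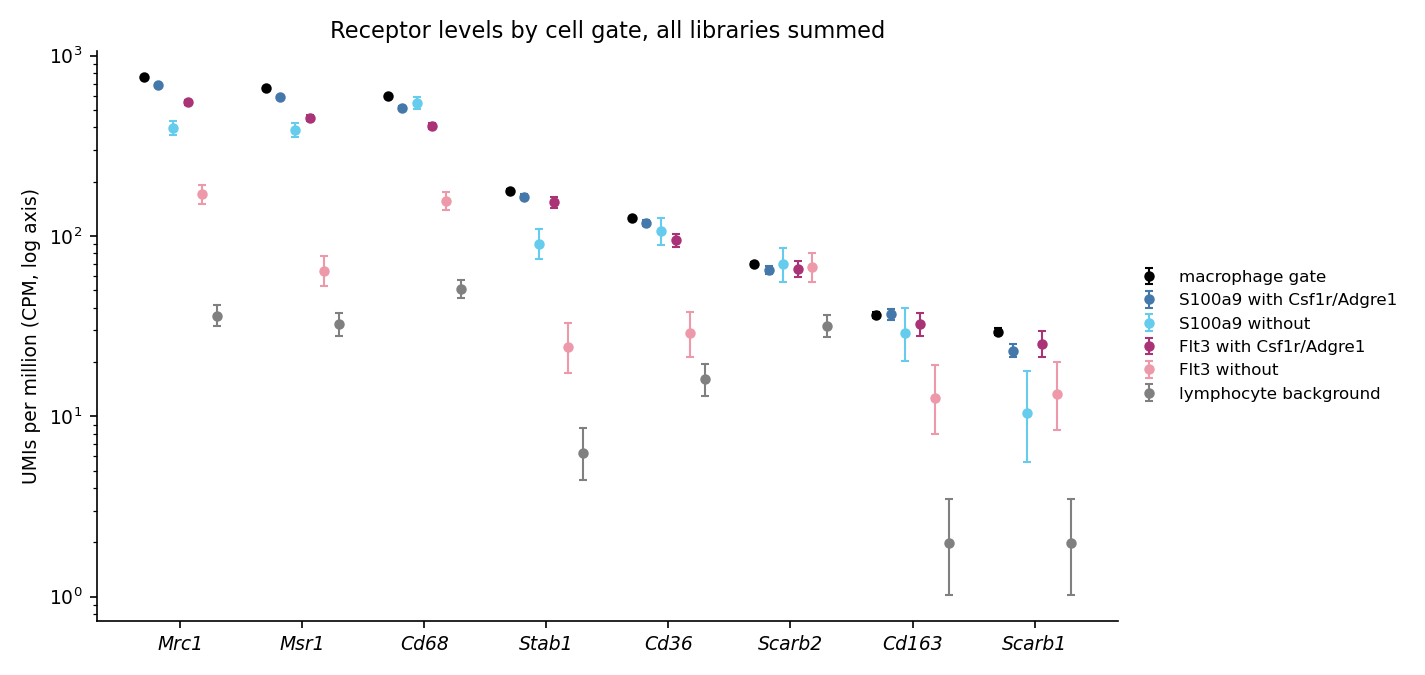
Level of 8 receptors (CPM, log axis, all libraries summed) in the macrophage gate, in S100a9 and Flt3 barcodes with and without 3 or more Csf1r and Adgre1 UMIs, and in the lymphocyte background; bars are 95% Poisson intervals. Flt3 barcodes without these UMIs are lowest of the myeloid sets for all receptors but Scarb2 and Scarb1, and Scarb2 varies least.

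Of the other uptake receptors, 16 of 28 were called lower and 4 higher in the dendritic gate (median log2 -0.68), where 6.58% and 10.8% of all genes were. The phosphatidylserine receptor Timd4 was 4.78-fold higher, Mgl2 2.73-fold higher and Clec4e 2.51-fold lower. Cd209a (5.83-fold higher, 62.3 against 8.83 CPM) reached 10 CPM only in the dendritic gate, and Scarf1, called lower, only in the macrophage gate. In the neutrophil gate 0 of 29 were called, where 3.45% of all genes were called higher and 0.116% lower.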

How the data were processed

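Per the deposited table, values were raw UMI counts of 20649 genes in 9235 barcodes; the authors' processing notes name Cell Ranger 1.2, Seurat 3.1.5, R 4.0.1 and the mm10 build, with no step assigned to each. Median depth by library was 7270 to 16125 UMIs. All barcodes were used, 0 columns were left out, and no doublet caller was run beyond the lymphocyte filter. Counts were summed over the barcodes of a gate and scaled to CPM, with exact Poisson and Clopper-Pearson 95% intervals. Ratios had 0.5 UMI added to each sum. Shares and correlations (log2 of the count per 10000 plus 1) used barcodes thinned to 2000 UMIs with seed 1. Python 3.11.15, numpy 2.4.6 and scipy 1.17.1 were used. The call rule was tested on data simulated for the C1qa comparison (6 libraries) with counting error only. Variation between cells, and the Retnla comparison with its 2 libraries, were not simulated. The receptors and lists were chosen with earlier results of these data known. Named genes were the listed receptors, markers of the gates, at most 4 other uptake receptors per comparison by largest ratio among those called, and the 3 genes most correlated with a receptor. Olr1 and Scarf1 were named besides, because they reached 10 CPM in only 1 arm. Loci and promoters came from RefSeq GRCm38.p6, the same assembly as mm10.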

Additional observations from a re-analysis of the deposited data

How the results depend on the processing

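No paired analysis was possible because no barcode could be matched to a labelled tumor, which left treatment and replicate number unknown; the planned treatment comparison with its alternatives (replicate block, DESeq2, no filter, left-out replicates) was not run. The number of receptors called moved by more than 1.5 times as follows. For Retnla (1 as reported) it was 3 with CPM summed over libraries, 2 with no filter on low values (Cd163 and Marco, the latter at 5 UMIs in all), 2 with at least 6 Csf1r and Adgre1 UMIs, 4 with at least 5 Retnla UMIs and 6 after thinning, the last 3 settings resting on library 5 alone. The share of all genes called for Retnla, in either direction, moved as well, from 7.61% to 11.5%, 27.4%, 10.6%, 18.5% and 38.1% in the same order. For Ly6c2 (3, with 6.61% of all genes called) it was 1 at 2-fold (1.99%) and 1 with at least 6 gate UMIs (4.90%). For Mmp12 (2, 2.42%) it was 1 at 2-fold (0.657%), 1 at 50 CPM (2.54%) and 1 with at least 6 gate UMIs (1.94%). The last 2 were without Cd163, which at 50 CPM was not tested. For C1qa only against Ly6c2 only (2, 19.5%) it was 1 at 2-fold (8.99%), 4 with at least 5 UMIs of the state gene (19.5%) and 4 after thinning (14.8%). For the dendritic gate (4) it was 0 at 2-fold (7.58%) and 7 without barcodes of at least 3 Csf1r and Adgre1 UMIs, and for the neutrophil gate (0) that last setting gave 4, where the share of all genes called went from 17.3% to 36.5% (dendritic) and from 3.57% to 22.5% (neutrophil). Leaving out each library in turn gave 1 to 3 for Retnla (2 without library 5, with 24.6% of all genes called, and 3 without library 6, with 9.17%). It gave 2 to 4 for C1qa only against Ly6c2 only (4 without library 6, with 21.1%). For Ly6c2 it gave 2 to 3, with 2 without library 3 (7.15%), 5 (7.18%) or 7 (6.19%). For the dendritic gate it gave 4 to 6, with 6 without library 4 (18.8%) and 5 without library 7 (18.5%) or 8 (18.3%). There was no change for C1qa (1, with 13.1% to 15.9% of all genes called) and Rsad2 (0, 1.79% to 2.25%). Mmp12 (2, 2.51% to 3.07%) and the neutrophil gate (0, 3.54% to 4.12%) did not change either. Of 195 alternative values of the called ratios, unchanged repeats for Retnla included, 174 were still called and none changed sign. Cd163 for Retnla was called under all 15 alternatives, but that comparison used libraries 5 and 6 only. Leaving out library 3, 4, 7 or 8 therefore repeated its reported result. At least 6 gate UMIs, at least 5 Retnla UMIs, thinning, and leaving out library 5 or 6 each left it 1 library. The same-sign rule could not fail there. Stab1 for C1qa and for C1qa only against Ly6c2 only was called under all 15 alternatives. Cd36 for C1qa only against Ly6c2 only was called under 13 (not with summed CPM or at 2-fold), Cd36 in the dendritic gate under 11 and Mrc1 for Ly6c2 under 9. The cause was not tested. Leaving out the deepest 5% of barcodes, chosen after seeing the data, kept all 8 counts within 1.5 times, though Mrc1 for Ly6c2 and Cd36 in the dendritic gate were no longer called. Without a library, Mrc1 in macrophage barcodes ranged from 656 to 823 CPM and Cd163 from 28.2 to 43.1 CPM. Of 224 alternative correlation values 216 moved by less than 0.05. Receptors below 10 CPM, such as Marco, could not be compared at this depth.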
